A study of Mus musculus with 16 samples.

Results

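CD9+ and CX3CR1+ macrophages sorted from the interface tissue around a tendon graft were compared for how their transcriptomes changed between postoperative day (POD) 1 and POD 14. The members of this comparison were the 8 bulk RNA-seq libraries of these populations out of 16 in the series, with 2 libraries for each population on each day. The other 8 libraries, from F4/80- myeloid cells and Ly6G+ neutrophils, entered the expression filter, the scaling factors and the shared estimate of the spread. They also served as values to set beside the result. All mice were wild-type C57BL/6 males by the labels, of the substrain C57BL/6J and 12 weeks old according to the methods, and all had undergone anterior cruciate ligament reconstruction (ACLR), in which a tendon is threaded through tunnels drilled in the femur and tibia. CD9+ macrophages were sorted as live, lineage-negative, CD45+ Ly6G- CD11b+ F4/80+ cells with CD9, and CX3CR1+ macrophages by the same antigens but with CX3CR1 and without CD9. Since CX3CR1 was not gated on in the CD9+ sort, double-positive cells belong to that population. Each library held cells pooled from several mice, for which the sources give differing numbers, no group came from unoperated mice, and a bulk library cannot tell fewer cells of a type from less RNA per cell.

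Macrophages that enter a wound are largely derived from monocytes, which carry the chemokine receptors CCR2 and CX3CR1 and acquire new programs as inflammation gives way to repair. CD9 is a tetraspanin, a membrane protein that macrophages gain with activation and lipid uptake. Early wound macrophages typically release IL-1, prostaglandins and chemokines, whereas later ones clear dead cells, handle lipid and remodel matrix. Type I interferon induces a separate set of antiviral genes and restrains osteoclast formation.

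For each gene, the log2 fold change from POD 1 to POD 14 in CD9+ macrophages was subtracted from that in CX3CR1+ macrophages. This difference of time changes is positive where the gene ended relatively higher in CX3CR1+ macrophages and negative where it ended relatively lower. Libraries held from 9233952 to 19814119 counts, and both populations were sequenced more deeply on POD 1. For 2 libraries against 2, as in the time change of 1 population, an exact permutation test of a single gene could not go below a two-sided p of 0.333. That limit is not the one for the difference of time changes, for which no permutation test was run. Calls rest on edgeR's quasi-likelihood test over 11998 genes in all 16 libraries. Calls required a log2 difference of at least 1 in size and, after Benjamini-Hochberg adjustment, a p below 0.05.

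The time change differed between the populations in 273 genes, which is 2.28% of those tested. In 112 of them (0.933%) it was higher in CX3CR1+ macrophages and in 161 (1.34%) it was lower. The differences were larger in the second set, with a median of -2.47 on the log2 scale and a range from -9.40 to -1.0, against a median of 1.36 and a range from 1.01 to 7.5 in the first. The extremes, Iglc2 at -9.40 and Col2a1 at 7.5, each depend on a single CX3CR1+ library, and for Col2a1 no fold is read. The median over all tested genes was 0.0379. In all 273 genes, the 4 differences between POD 14 and POD 1 libraries of CX3CR1+ macrophages lay apart from the 4 of CD9+ macrophages, which was true of 3566 of all tested genes (29.7%). These differences pair the same libraries that gave the calls, so the separation is no independent support for them. With no minimum size, 341 genes passed the adjusted threshold, and 1949 genes had an unadjusted p under 0.05.

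The number of calls depended on single libraries. It was 907 without the first CD9+ library of POD 1 and 416 without the second, 184 and 179 without either CD9+ library of POD 14, 165 and 154 without either CX3CR1+ library of POD 1, and 123 and 137 without either CX3CR1+ library of POD 14. Of the 273 genes, 87 were called in all 8 of these fits, 23 of them higher and 64 lower in CX3CR1+ macrophages. Each of the 273 kept its sign wherever it was tested in these fits. The CD9+ libraries of POD 1 were the least alike of any group, the SD of the log2 difference between them across genes being 0.912 against 0.382 to 0.625 elsewhere. Transcripts annotated as similar to ribosomal RNA made up 5.89% of the counts of one and 15.3% of the other. Leaving these and mitochondrial genes out before scaling, an alternative chosen after seeing the data, gave 270 calls, 263 of them among the 273. When each library was scaled by its size alone, the median of all genes moved to -0.187 and the split became 54 higher and 260 lower (17.2% higher), against 41% higher with TMM factors and 30.9% with upper quartile factors. The p-values measure only the spread between these libraries.

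**Figure D1:**
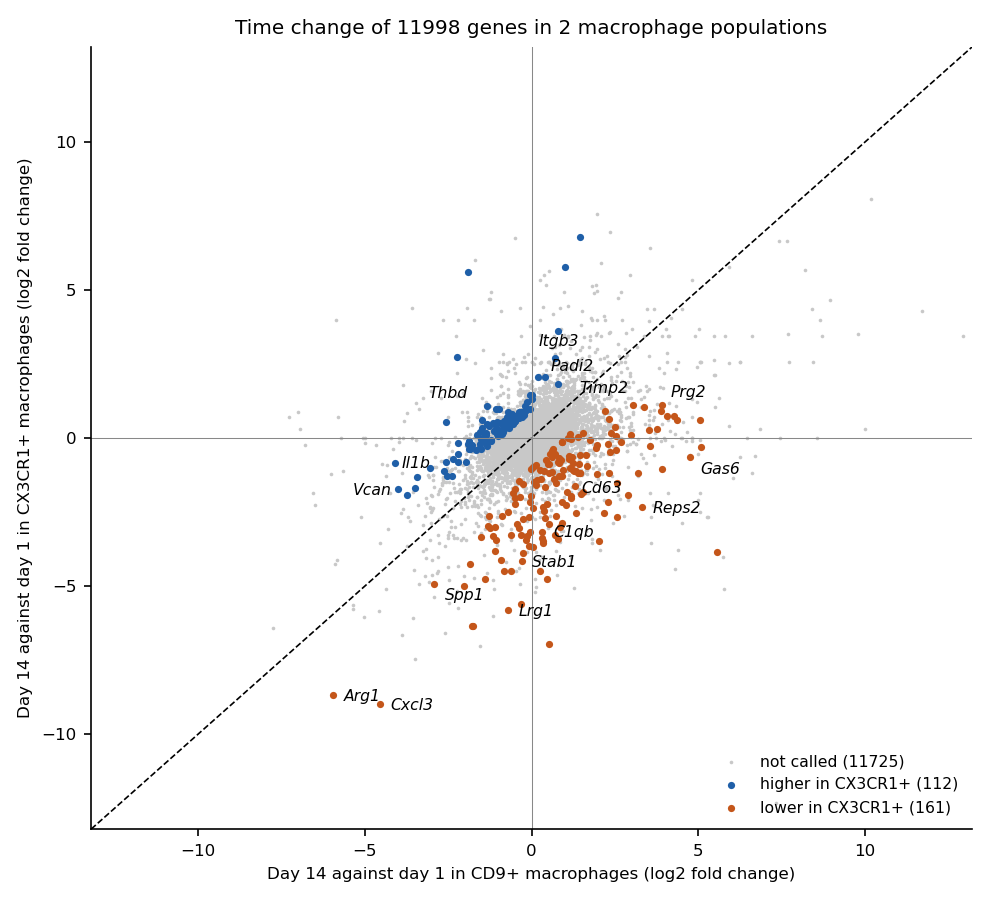
Log2 fold change from POD 1 to POD 14 of 11998 genes in CD9+ (horizontal axis) and CX3CR1+ macrophages (vertical axis). Each point is a gene, the dashed line marks equal change, blue points are the 112 genes called higher in CX3CR1+ macrophages and orange points the 161 called lower. Most blue points lie left of 0 on the horizontal axis, and the orange points spread over genes that fell in CX3CR1+ or rose in CD9+ macrophages.

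Within each population, 988 genes (8.23%) changed over time in CD9+ macrophages, 570 rising and 418 falling, and 703 (5.86%) changed in CX3CR1+ macrophages, 287 rising and 416 falling. The first count was 1745 without the first CD9+ library of POD 1 and 577 without the first of POD 14, and the second was 468 and 434 without either CX3CR1+ library of POD 14. A change called in one population alone was mostly not a called difference. Of 684 genes called over time in CD9+ macrophages only, 95 differed between the populations, and of 399 called in CX3CR1+ macrophages only, 77 did. Among 304 genes called in both, 289 moved in the same direction. The 15 that moved in opposite directions were all called as different, which was likely beforehand because opposite changes add up in the difference. Another 60 genes differed although neither population passed alone.

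The called genes split by which population moved. Of the 112 higher in CX3CR1+ macrophages, 45 fell in CD9+ macrophages with no call in CX3CR1+ macrophages, 13 rose in CX3CR1+ macrophages only, 8 fell in both but more in CD9+ macrophages, 2 moved in opposite directions and 44 were called in neither. Of the 161 lower genes, 64 fell in CX3CR1+ macrophages only, 50 rose in CD9+ macrophages only, 13 rose in CD9+ and fell in CX3CR1+ macrophages, 16 fell in both, 2 rose in both and 16 were called in neither.

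The populations stood further apart at the later day for most of these genes. Between the populations, 988 genes (8.23%) differed on POD 1 and 1704 (14.2%) on POD 14. Of the 112 genes, 17 differed between the populations on POD 1 and 85 on POD 14, and 77 went from no call to higher in CX3CR1+ macrophages. Of the 161 genes, 75 differed on POD 1 and 148 on POD 14. Here 83 went from no call to higher in CD9+ macrophages and 62 were higher in CD9+ macrophages on both days. The difference of time changes is also the change of the population difference between the days. These counts thus reuse the values behind the calls and are no independent support.

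The antigens used for the sort were read first, and since CD9 defined the populations its level between them is no result. Cd9 had 149 and 149 CPM (read counts scaled to a common library size with TMM factors) in the CD9+ libraries of POD 1 and 142 and 184 on POD 14. In CX3CR1+ macrophages it had 18.4 and 21.1, then 6.62 and 6.50. All CX3CR1+ libraries lay below all CD9+ libraries, and the gap widened by POD 14. The difference of time changes was -1.72 (standard error 0.20, adjusted p = 4.2e-04). For Cx3cr1, CD9+ libraries had 73.0 and 93.7 CPM, then 78.1 and 108, and CX3CR1+ libraries had 133 and 148, then 253 and 293. Its difference of 0.80 (standard error 0.24, adjusted p = 0.093) was not called, nor was that of Ccr2 (1.12, standard error 0.31, adjusted p = 0.067), the receptor that brings monocytes out of the blood. Ccr2 was called in the fit without the first CD9+ library of POD 1, with DESeq2 and with the 8 macrophage libraries alone. Neither Adgre1, which encodes F4/80 (-0.58, standard error 0.30, adjusted p = 0.36), nor Itgam, which encodes CD11b (0.11, standard error 0.22, adjusted p = 0.86), was called.

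Markers of the sorted type were present in every library. The 9 macrophage markers, among them Csf1r, Adgre1 and Cd68, summed to between 1430 and 3390 CPM in the 8 libraries with none at 0, against 686 to 797 CPM in F4/80- cells and 1980 to 4330 CPM in neutrophils. Markers of eosinophils and neutrophils were also present in CD9+ libraries. The 8 eosinophil markers summed to 649 and 660 CPM in CD9+ macrophages on POD 1 and to 7080 and 11500 on POD 14, and to between 34.5 and 128 in CX3CR1+ libraries. The 16 neutrophil markers summed to 21800 and 7000 CPM in CD9+ macrophages on POD 1 and 24100 and 15900 on POD 14. In CX3CR1+ libraries they summed to 1660 and 1560, then 756 and 860, against at least 64300 in sorted neutrophils. Ly6g, the antigen gated out, was at 4.99 CPM or below in all 8 libraries. Basophil and mast cell markers summed to 111 to 439 CPM in CD9+ libraries and to at most 9.10 CPM in CX3CR1+ libraries.

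**Figure D2:**
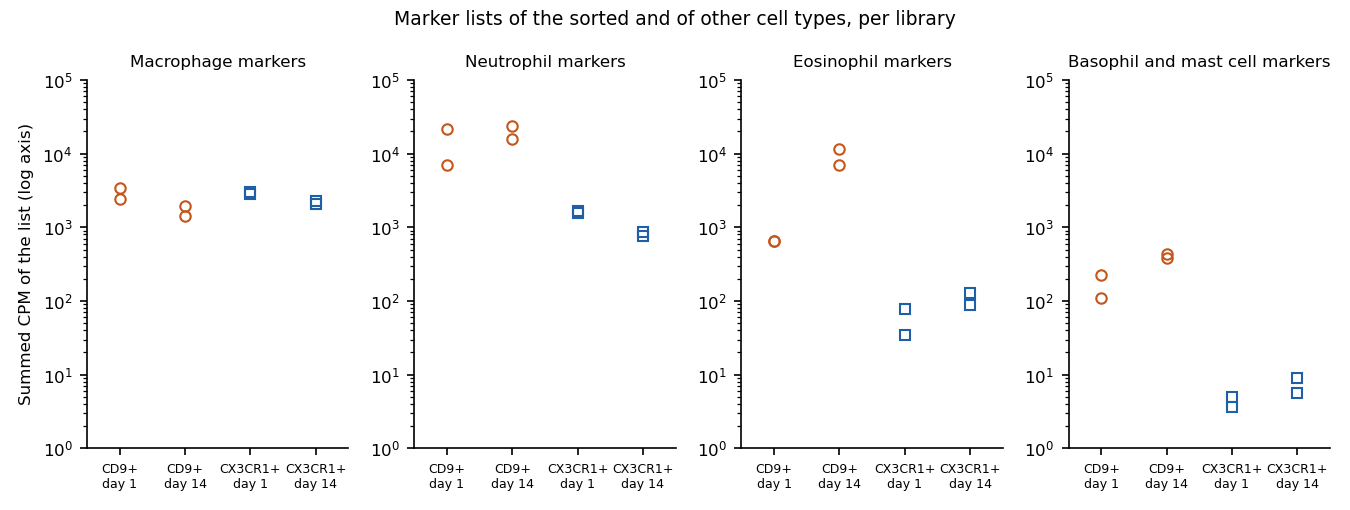
Summed CPM on a log axis of macrophage, neutrophil, eosinophil, and basophil and mast cell marker lists, with 1 point per library and 2 libraries per group. Macrophage markers are of the same order in all 4 groups, whereas the 2 CD9+ libraries of POD 14 hold 7080 and 11500 CPM of eosinophil markers against 87.2 and 128 in CX3CR1+ libraries of that day.

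Of the 8 eosinophil markers, 5 were called and all 5 were lower in CX3CR1+ macrophages, with a median of -2.56 for the list. Prg2, the major basic protein of eosinophil granules, had 281 and 390 CPM in CD9+ macrophages on POD 1 and 3930 and 6240 on POD 14. In CX3CR1+ macrophages it had 7.95 and 31.4, then 53.1 and 31.8, so the days lay apart in both populations, though by little in CX3CR1+ macrophages. Without the second CX3CR1+ library of POD 1 the difference of Prg2 was -1.53 (adjusted p = 0.28). The differences were -2.80 for Prg2, -3.33 for the peroxidase gene Epx, -3.54 for Ear6 and -2.33 for Ear2, which encode granule ribonucleases, and -2.39 for the surface lectin Siglecf (adjusted p = 0.0061 to 0.043). The 3 members not called were Ear1 (-2.73, adjusted p = 0.054), Ccr3 (-1.51, adjusted p = 0.47) and Il5ra, which was at 0 in both CX3CR1+ libraries of POD 1. The number of called members fell to 1 without the second CX3CR1+ library of either day, 2 without the second CD9+ library of POD 14 and 3 without the first CX3CR1+ library of POD 14. Epx, Ear6, Prg2 and Siglecf were called in 5, 6, 3 and 4 of the 8 fits that left out a library. The part of eosinophil RNA in the other genes that rose in CD9+ macrophages was not tested.

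Among genes of the complement system, 6 of 13 tested were called, all lower in CX3CR1+ macrophages. The median difference of the list was -0.44, with 9 members negative and 4 positive. C1q, made by macrophages, tags dead cells and debris for uptake, and its 3 chains are encoded side by side on chromosome 4 of mm10 (C1qb at 136880129 to 136886187, C1qc at 136889804 to 136893065 and C1qa at 136895917 to 136898803). C1qb had 102 and 127 CPM in CD9+ macrophages on POD 1 and 107 and 184 on POD 14, and 158 and 124 CPM in CX3CR1+ macrophages on POD 1. By POD 14 it was down to 12.6 and 11.4 in CX3CR1+ macrophages. The populations thus overlapped on POD 1, and on POD 14 all CX3CR1+ values lay below all CD9+ values. The difference was -3.90 for C1qb (standard error 0.57, adjusted p = 0.0020), -3.79 for C1qc (standard error 0.56, adjusted p = 0.0022) and -3.45 for C1qa (standard error 0.67, adjusted p = 0.011). C1qa was called in 5 of the 8 fits that left out a library, its value without the second CD9+ library of POD 14 being -3.14 (adjusted p = 0.057) and without the first and the second CX3CR1+ library of POD 14 -3.38 (0.077) and -3.56 (0.057). C1qb and C1qc were called in all 8.

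The complement receptors moved likewise. C3ar1, the receptor for the C3a fragment, had 185 and 203 CPM, then 160 and 317, in CD9+ macrophages, and 105 and 149, then 7.84 and 20.6, in CX3CR1+ macrophages (difference -3.46, standard error 0.47, adjusted p = 0.0012). Its 2 CX3CR1+ libraries of POD 14 were both below every other library. C5ar1, the receptor for C5a, fell in both populations, and the fall was larger in CX3CR1+ macrophages (difference -1.78, standard error 0.22, adjusted p = 6.6e-04). Itgax, which encodes CD11c and forms complement receptor 4 with CD18, had a difference of -1.31 (adjusted p = 0.040) and was called in 2 of the 8 fits that left out a library. The 7 members without a call included C3 (0.42, adjusted p = 0.41) and Itgam.

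Scavenger and efferocytosis receptors gave 3 calls lower and 1 higher in CX3CR1+ macrophages among 15 tested. Stab1, a scavenger receptor for debris, had 139 and 329 CPM, then 141 and 239, in CD9+ macrophages and 100 and 139, then 5.40 and 8.17, in CX3CR1+ macrophages. Its CD9+ groups overlapped, and both CX3CR1+ libraries of POD 14 lay below all others (difference -3.85, standard error 0.53, adjusted p = 0.0012). Tgm2, a transglutaminase that takes part in uptake of dead cells, fell in both populations, by 1.85 on the log2 scale in CD9+ and by 4.25 in CX3CR1+ macrophages (difference -2.39, adjusted p = 0.0041). Gas6, the ligand that bridges dead cells to receptors of the TAM family, went from 0.495 and 1.16 CPM to 17.0 and 26.5 in CD9+ macrophages, whereas its CX3CR1+ libraries stayed between 0.174 and 0.703. Its difference of -5.40 (standard error 1.02, adjusted p = 0.0095) rests on low values in CX3CR1+ macrophages and was called in 6 of 8 fits, not without the second CD9+ library (-5.04, adjusted p = 0.060) or the first CX3CR1+ library (-4.76, adjusted p = 0.065) of POD 14. The call in the other direction was Clec7a, the receptor dectin-1 for fungal glucan. It had 277 and 257 CPM, then 160 and 196, in CD9+ macrophages and 403 and 456, then 602 and 682, in CX3CR1+ macrophages (difference 1.16, standard error 0.18, adjusted p = 0.0024), although with scaling by library size alone it stood at 0.94 and missed the threshold.

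Of 21 lipid-handling genes 3 were called lower in CX3CR1+ macrophages, Olr1, Spp1 and the sort antigen Cd9, whose level is no result. Of 35 lysosomal genes 1 was called, also lower, a share close to the 2.28% of all tested genes. The median of the lysosomal genes was -0.06. The median of the lipid-handling genes was -0.68, and it was -1.01 without the first CD9+ library of POD 14 and -0.29 without the second. Without the second CD9+ library of POD 1, 5 of them were called lower. Cd63, a tetraspanin of lysosomes and secretory granules, had 93.0 and 85.5 CPM, then 183 and 225, in CD9+ macrophages and 13.7 and 11, then 2.0 and 4.18, in CX3CR1+ macrophages. It rose in the first population and fell in the second (difference -3.20, standard error 0.32, adjusted p = 1.7e-04). Olr1, a receptor for oxidised low-density lipoprotein, did the same with 81.7 and 56.4 CPM, then 135 and 153, against 25.3 and 30.6, then 6.45 and 9.56 (difference -2.86, standard error 0.38, adjusted p = 9.4e-04). Both genes were already higher in CD9+ macrophages on POD 1, and the populations stood further apart on POD 14. Cd63 and Olr1 were called in all 8 fits that left out a library. Cd63 is also a protein of granulocyte granules, and the eosinophil markers, at 7080 and 11500 CPM in the same POD 14 libraries, moved with it. Their part in this difference was not tested.

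**Figure D3:**
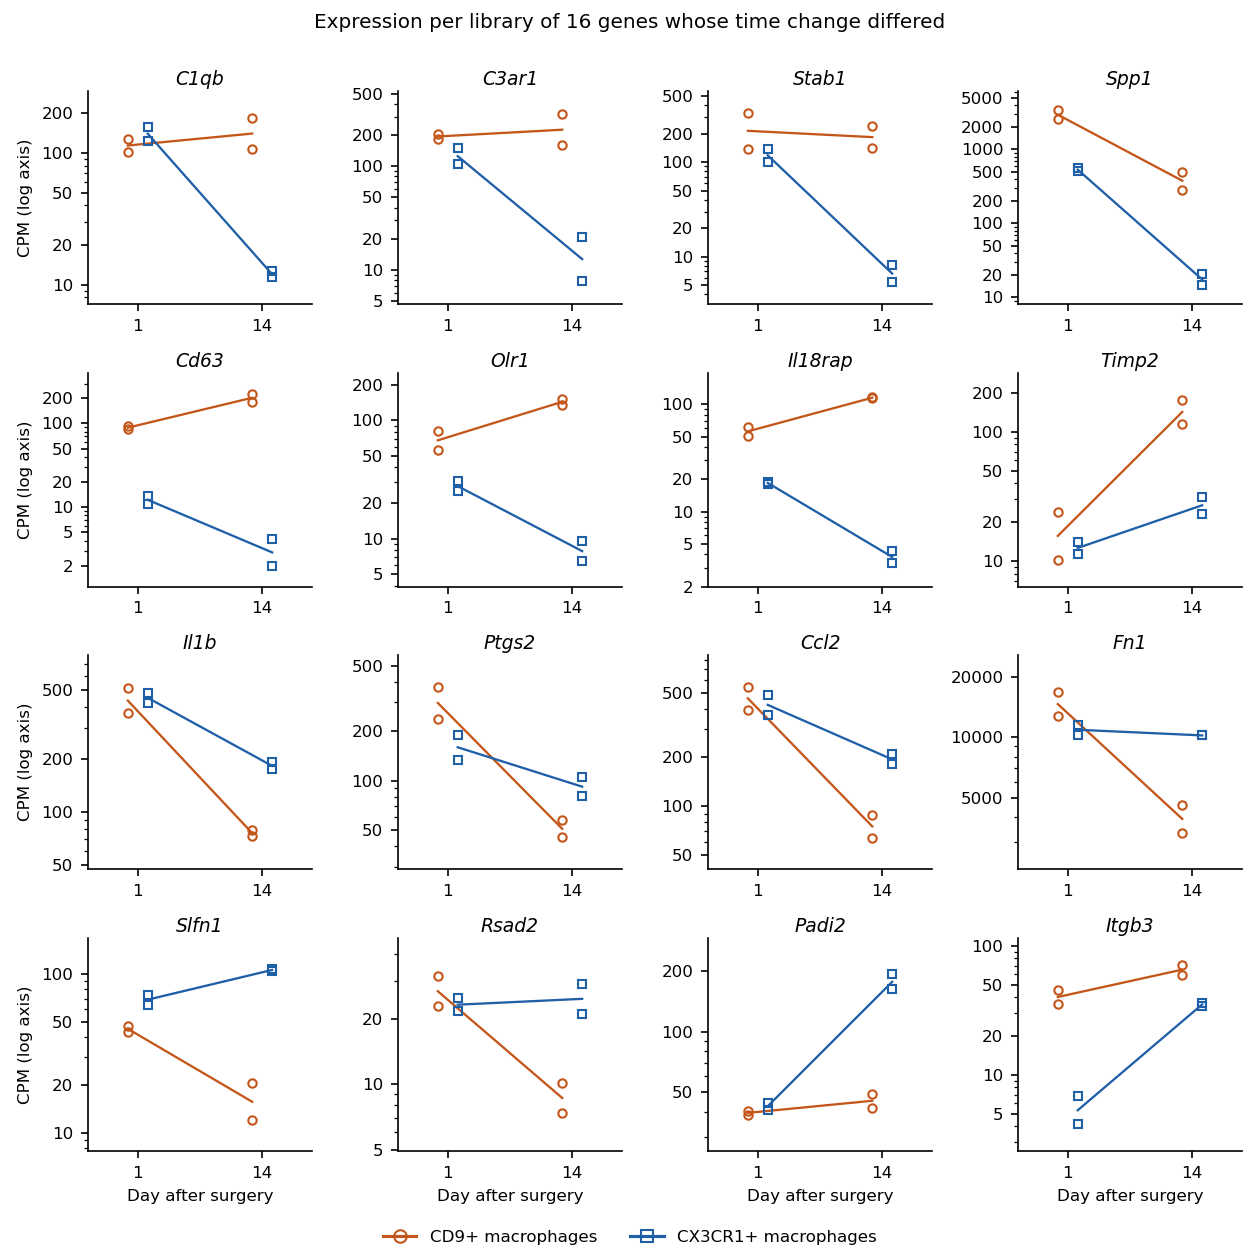
CPM on a log axis of 16 called genes on POD 1 and POD 14 in CD9+ (orange circles) and CX3CR1+ macrophages (blue squares), with 1 symbol per library, 2 libraries per group, and lines between geometric means. In the upper panels C1qb and C3ar1 fall in CX3CR1+ macrophages while the CD9+ values of the days overlap, in the third line of panels Il1b, Ptgs2 and Ccl2 fall more steeply in CD9+ macrophages, and Fn1 falls in CD9+ macrophages only.

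Opposite movement was seen in 15 genes. Besides Cd63 and Olr1, those that rose in CD9+ and fell in CX3CR1+ macrophages included Il18rap, a chain of the interleukin-18 receptor. It had 61.7 and 50.9 CPM, then 117 and 114, in CD9+ macrophages and 18.0 and 19.1, then 4.27 and 3.34, in CX3CR1+ macrophages. The libraries of each group lay close together, and the difference of -3.31 had the smallest standard error of the 15 genes (0.21, adjusted p = 9.5e-07). Olfml3, a secreted matrix protein, had a difference of -3.37 (adjusted p = 7.5e-04), and Cd276, an inhibitory ligand of the B7 family, one of -5.51 (adjusted p = 0.0061). Serpinb2, an inhibitor of plasminogen activators, had 14.8 and 22.1 CPM, then 44.5 and 57.8, in CD9+ macrophages and at most 1.67 CPM in CX3CR1+ macrophages (difference -3.36, adjusted p = 0.010). Reps2, Htra3, Tulp3 and Med12l also moved apart, with differences from -5.64 to -2.92, and were below 10 CPM in every CX3CR1+ library. Of these, Htra3, Serpinb2, Med12l and Cd276 were called in 3, 5, 6 and 7 of the 8 fits that left out a library.

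The 2 genes that fell in CD9+ and rose in CX3CR1+ macrophages were Thbd and Pnpla1. Thbd, which encodes thrombomodulin, a cofactor that turns thrombin toward anticoagulation, had 76.3 and 142 CPM, then 35.4 and 50.2, in CD9+ macrophages and 84.0 and 92.8, then 190 and 180, in CX3CR1+ macrophages. The populations overlapped on POD 1 and were separate on POD 14, and the difference of 2.41 (standard error 0.35, adjusted p = 0.0017) was called in all 8 fits that left out a library. Pnpla1, a lipase relative, was near the limit of detection, with 2 and 3 counts in the CX3CR1+ libraries of POD 1 and 8 and 11 on POD 14, so no fold is given.

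Of 22 inflammatory cytokines and mediators, 4 were called higher and 1 lower in CX3CR1+ macrophages, with a median difference of 0.96. The median time change of the list was -1.54 on the log2 scale in CD9+ macrophages and -0.67 in CX3CR1+ macrophages. In CD9+ macrophages 16 members fell and in CX3CR1+ macrophages 7 did. Ptgs2, the inducible enzyme of prostaglandin synthesis, had 238 and 371 CPM, then 45.4 and 57.7, in CD9+ macrophages and 134 and 191, then 81.0 and 105, in CX3CR1+ macrophages (difference 1.75, standard error 0.36, adjusted p = 0.016). The order of the populations turned between the days, although neither day was a called difference. Nlrp3, the sensor of the inflammasome that activates IL-1beta, went from 129 and 249 to 70.3 and 57.6 in CD9+ macrophages and from 172 and 183 to 216 and 191 in CX3CR1+ macrophages (difference 1.76, standard error 0.38, adjusted p = 0.021). The co-receptor Cd14 (1.18, adjusted p = 0.027) and the receptor Tlr2 (1.15, adjusted p = 0.042) passed by less, and fell below the threshold of 1 with scaling by library size alone, at 0.94 and 0.90.

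Ptgs2, Nlrp3, Cd14 and Tlr2 were called in 5, 2, 2 and 1 of the 8 fits that left out a library, with positive differences in all. The list held 7 calls higher without the first CD9+ library of POD 1, 2 without the second and none without the first CD9+ library of POD 14, the first CX3CR1+ library of POD 1 or the second of POD 14. Its median was 0.55 without the second CD9+ library of POD 1, and 0.57 and 0.47 without either CX3CR1+ library of POD 14. Without the second CD9+ library of POD 1, Cd14 stood at 0.79 (adjusted p = 0.046) and Tlr2 at 0.67 (adjusted p = 0.064).

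The other direction was taken by Il6, the gene of interleukin-6. It rose in CD9+ macrophages, from 2.76 and 4.33 to 17.9 and 15.7 CPM, and had 2.90 and 2.09, then 1.92 and 2.51, in CX3CR1+ macrophages (difference -2.46, standard error 0.47, adjusted p = 0.0095). The call of Il6 was lost without the first CX3CR1+ library of POD 1 (-2.21, adjusted p = 0.062) or of POD 14 (-2.30, adjusted p = 0.066). Tnf, which encodes the cytokine TNF, had 58.2 and 71.9 CPM, then 47.2 and 46.8, in CD9+ macrophages and 29.3 and 31.6, then 22.6 and 20.8, in CX3CR1+ macrophages. Its difference was -0.02 (standard error 0.33, adjusted p = 0.99). The 16 tested subunits and inhibitors of NF-kappaB gave no call, and 1 without the first CD9+ library of POD 1.

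In the IL-1 family, 1 of 9 tested members was called higher and 1 lower in CX3CR1+ macrophages. Il1b fell in both populations and fell more in CD9+ macrophages, where it went from 369 and 507 to 73.0 and 78.6 CPM against 419 and 480, then 175 and 192, in CX3CR1+ macrophages (difference 1.24, standard error 0.25, adjusted p = 0.014). It was called in 4 of the 8 fits that left out a library, and stood at 0.99 without the second CD9+ library of POD 1. Il1a, the other agonist, had a difference of a like size but with a wide error (1.25, standard error 0.93, adjusted p = 0.56). Il1f9, which encodes IL-36gamma, went the other way, from 13.4 and 8.03 to 4.99 and 3.24 CPM in CD9+ macrophages and from 9.36 and 5.64 to 0.349 and 0.186 in CX3CR1+ macrophages (difference -3.37, adjusted p = 0.015, called in 5 of 8 fits). The antagonist Il1rn and the decoy receptor Il1r2 had differences of -0.38 and -0.74 with no call.

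Ccl2, the ligand of CCR2, was the 1 call among 10 CC chemokines, with 546 and 393 CPM, then 63.9 and 88.2, in CD9+ macrophages and 367 and 485, then 209 and 181, in CX3CR1+ macrophages (difference 1.5, standard error 0.28, adjusted p = 0.0084). Its groups overlapped on POD 1 and were separate on POD 14. The call was lost without the first CD9+ library of POD 14 (1.27, adjusted p = 0.053) and without the first CX3CR1+ library of POD 1 (1.30, adjusted p = 0.062) or POD 14 (1.37, adjusted p = 0.061). Of 10 CXC chemokines, 9 had negative differences, with a median of -1.29, and 1 was called. That was Cxcl3, which draws neutrophils, with 6929 and 6801 counts, then 184 and 337, in CD9+ macrophages and 1859 and 2918, then 2 and 3, in CX3CR1+ macrophages, where it was nearly undetected on POD 14. Cxcl3 was called in 4 of the 8 fits that left out a library, and the median of the list lay between -1.99 and -0.96 in these fits, being -1.99 without the second CX3CR1+ library of POD 14. Cxcl2, a close relative, had a difference of -0.86 (standard error 0.45, adjusted p = 0.37).

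Of 13 matrix genes, 3 were called higher and 2 lower in CX3CR1+ macrophages, with a median of 0.66. The median was 0.35 without the second CD9+ library of POD 1, 0.29 without the first of POD 14 and 0.42 without the second CX3CR1+ library of POD 14. Fn1, which encodes fibronectin, had 12700 and 16800 CPM, then 3350 and 4580, in CD9+ macrophages and 10300 and 11500, then 10200 and 10200, in CX3CR1+ macrophages. It fell in CD9+ macrophages alone, by 1.89 on the log2 scale, and the difference was 1.80 (standard error 0.32, adjusted p = 0.0072). Vcan, the matrix proteoglycan versican of monocytes, fell in both and further in CD9+ macrophages, from 949 and 1100 to 70.3 and 83.5 CPM against 1670 and 1910, then 493 and 446 (difference 1.81, standard error 0.32, adjusted p = 0.0067). Emilin2, an elastic fibre glycoprotein, had a difference of 1.38 (adjusted p = 0.012). F13a1, the coagulation factor that crosslinks fibrin, had 1430 and 1870 CPM, then 701 and 583, in CD9+ macrophages and between 2080 and 2430 in all 4 CX3CR1+ libraries (difference 1.55, adjusted p = 0.017). F10, coagulation factor X, fell in CD9+ macrophages only (difference 1.65, standard error 0.30, adjusted p = 0.0083). Fn1, Vcan and F10 were called in all 8 fits that left out a library, Emilin2 in 4 and F13a1 in 3.

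Spp1, which encodes the matricellular protein osteopontin, moved the other way. It had 2580 and 3370 CPM, then 286 and 498, in CD9+ macrophages and 508 and 559, then 14.8 and 20.6, in CX3CR1+ macrophages (difference -1.99, standard error 0.32, adjusted p = 0.0039). Both populations lost it, CX3CR1+ macrophages more. Ecm1, a secreted matrix protein, fell by 1.09 in CD9+ and by 3.82 in CX3CR1+ macrophages on the log2 scale (difference -2.73, standard error 0.34, adjusted p = 7.2e-04). Arg1, the arginase of alternatively activated macrophages, fell steeply in both, from 2180 and 2600 to 33.5 and 44.0 CPM in CD9+ macrophages and from 368 and 483 to 0.784 and 1.30 in CX3CR1+ macrophages (difference -2.72, standard error 0.38, adjusted p = 0.0014).

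Proteases of matrix and their inhibitors gave 4 calls among 15, all lower in CX3CR1+ macrophages. Mmp14, a membrane collagenase, had 153 and 242 CPM, then 81.3 and 134, in CD9+ macrophages and 79.9 and 69.6, then 10.3 and 13.6, in CX3CR1+ macrophages (difference -1.77, standard error 0.37, adjusted p = 0.017). Adam8, a sheddase of leukocytes, fell in both populations and more in CX3CR1+ macrophages (difference -2.38, standard error 0.29, adjusted p = 6.6e-04). Timp2, an inhibitor of metalloproteases, rose in both, from 24.0 and 10.3 to 115 and 175 CPM in CD9+ macrophages and from 14.0 and 11.5 to 23.2 and 31.6 in CX3CR1+ macrophages (difference -1.95, standard error 0.44, adjusted p = 0.025). Adam8 was called in all 8 fits that left out a library, Mmp14 in 5 and Timp2 in 3. The list held 2 calls without the second CD9+ library of POD 14, either CX3CR1+ library of POD 1 or the second of POD 14, and 1 without the first of POD 14. The 13 tested repair growth factors gave no call, though 2 were called lower without the second CD9+ library of POD 1 and 1 without the first CX3CR1+ library of that day. Among them Igf1 had 2.55 and 1.90 CPM, then 27.6 and 42.2, in CD9+ macrophages and at most 2.32 CPM in CX3CR1+ macrophages (difference -2.28, adjusted p = 0.16).

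Osteoclasts arise from the same lineage, and of 15 genes of osteoclast differentiation 1 was called in each direction. Itgb3, the beta3 integrin by which osteoclasts grip bone, had 45.3 and 35.5 CPM, then 71.4 and 59.8, in CD9+ macrophages. In CX3CR1+ macrophages it rose from 4.13 and 6.85 to 34.3 and 36.0, so the population difference of POD 1 narrowed (difference 1.99, standard error 0.32, adjusted p = 0.0034). Acp5, the tartrate-resistant phosphatase, had 82.9 and 62.2 CPM, then 87.5 and 104, in CD9+ macrophages and 19.9 and 14.1, then 6.88 and 3.99, in CX3CR1+ macrophages (difference -2.03, standard error 0.51, adjusted p = 0.047). The first call held in all 8 fits that left out a library and the second in 1. Nfatc1, the master regulator of the osteoclast fate, had a difference of 0.24 (adjusted p = 0.60).

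Differences of interferon-stimulated genes were mostly positive, and most single genes did not pass. All 10 genes of the interferon score used in the study had positive differences, with a median of 0.93, and 1 was called. The study applied this list to these samples, so its direction is not independent evidence. Of 54 other interferon-stimulated genes, 48 had positive differences, with a median of 0.63, and 4 were called, all higher. That median was 0.39 without the first CD9+ library of POD 14 and 0.99 without the second, and the called genes numbered 8 and 10 without the first and the second CD9+ library of POD 1, and 1 without the first of POD 14 or any 1 CX3CR1+ library. Over all tested genes, 6387 of 11998 had positive differences and 112 (0.933%) were called higher. The score genes had a median change of -0.77 in CD9+ and of 0.40 in CX3CR1+ macrophages, and summed to 228 and 150 CPM, then 121 and 181, in CD9+ libraries and to 250 and 208, then 326 and 373, in CX3CR1+ libraries. On POD 1 the sums of the populations overlapped and on POD 14 they did not. Relative to the median of all genes, the list medians were 0.93 and 0.59 with scaling by library size alone, where 10 of 10 and 42 of 54 were positive. Without the first CD9+ library of POD 1 the number of positive score genes was 7 of 10, with a median of 0.48. It was 10 of 10 without the second CD9+ library of POD 14, with a median of 1.63. The interferon-inducible GTPases, induced mainly by interferon gamma, gave no call among 11. The 10 tested genes of MHC class II and the 18 of MHC class I presentation gave none either.

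**Figure D4:**
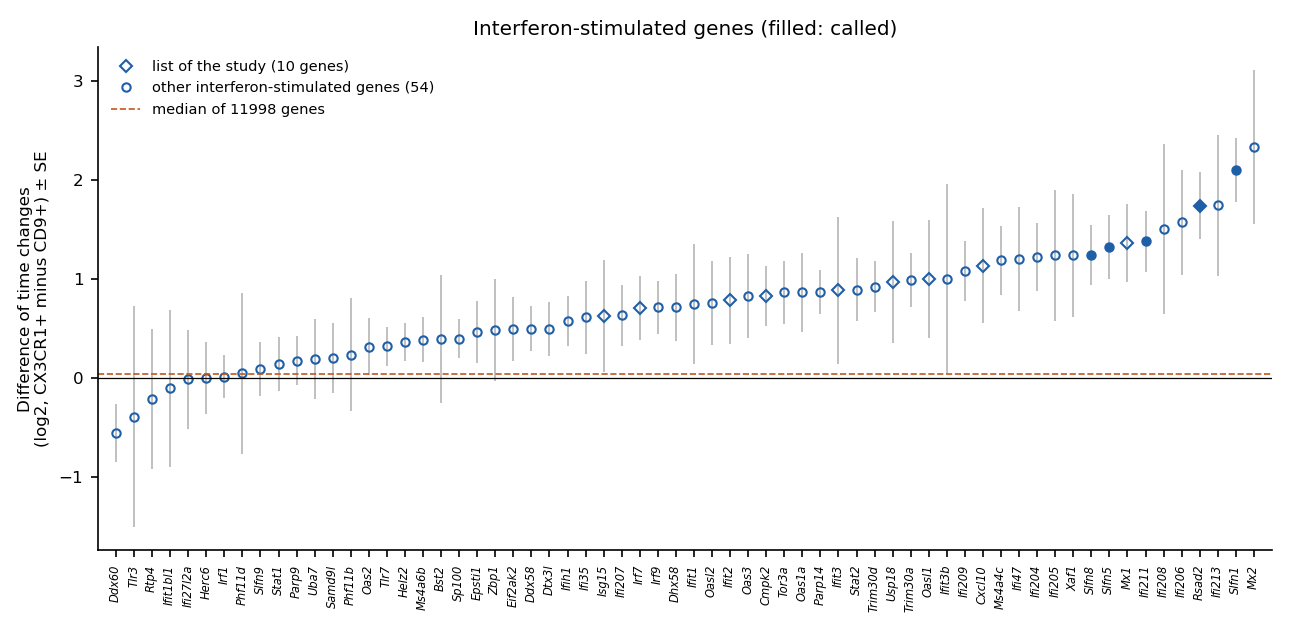
Difference of time changes (log2, CX3CR1+ minus CD9+) with standard error for the 10 score genes of the study (diamonds) and 54 other interferon-stimulated genes (circles), ordered by value, with filled symbols for called genes. Positive values are seen for 10 of 10 and 48 of 54 genes, against a dashed line at the median of all genes, and 5 symbols are filled.

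The called interferon genes showed the pattern within each group. Rsad2, which encodes the antiviral enzyme viperin, fell in CD9+ macrophages from 31.4 and 22.9 to 7.39 and 10.1 CPM and had 24.9 and 21.7, then 21.1 and 29.0, in CX3CR1+ macrophages (difference 1.74, standard error 0.34, adjusted p = 0.011). Slfn1, a Schlafen gene that restrains proliferation of lymphocytes, had 47.1 and 43.4 CPM, then 12 and 20.6, in CD9+ macrophages and 74.2 and 64.0, then 104 and 108, in CX3CR1+ macrophages (difference 2.10, standard error 0.32, adjusted p = 0.0027). Slfn1, Slfn5 and Slfn8 lie within 82951349 to 83122670 of chromosome 11 and all 3 were called. Slfn5 had a difference of 1.32 (adjusted p = 0.038) and Slfn8 one of 1.24 (adjusted p = 0.042), both lost with upper quartile scaling and with scaling by library size alone. Ifi211, a member of the PYHIN family on chromosome 1, had a difference of 1.38 (adjusted p = 0.023). Ifitm3, which blocks entry of viruses, had 138 and 129 CPM, then 68.4 and 83.3, in CD9+ macrophages and 230 and 219, then 322 and 354, in CX3CR1+ macrophages (difference 1.4, standard error 0.26, adjusted p = 0.0092). Slfn1 was called in all 8 fits that left out a library, Rsad2 and Ifitm3 in 5, Ifi211 and Slfn5 in 3 and Slfn8 in 2. Ifitm1, of the same family as Ifitm3, had a difference of -1.48 (adjusted p = 0.075) with no call.

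Promoter sequences of RefSeq for GRCm38.p6, which shares the coordinates of mm10, were read for 8851 of the tested genes, 83 of those called higher and 134 of those called lower. Each window ran from 250 bases before to 50 bases after the annotated start. The core of the interferon-stimulated response element, searched as GAAA, any 2 bases and GAAA on both strands, was in 13 of the 83 promoters of genes called higher (15.7%), in 1 of the 134 of genes called lower (0.746%) and in 4.08% of all. Matches may overlap other motifs, and the motifs were chosen after results were known. The 5 windows below are those of the interferon genes described above that hold a match, and are shown 5′ to 3′ on the strand of the gene with the matches in capitals. The called gene Ifi203, also of the PYHIN family, holds a match too and is not shown. For Slfn8, the first of 2 annotated starts is shown.
Rsad2 (chr12:26456403-26456702, - strand): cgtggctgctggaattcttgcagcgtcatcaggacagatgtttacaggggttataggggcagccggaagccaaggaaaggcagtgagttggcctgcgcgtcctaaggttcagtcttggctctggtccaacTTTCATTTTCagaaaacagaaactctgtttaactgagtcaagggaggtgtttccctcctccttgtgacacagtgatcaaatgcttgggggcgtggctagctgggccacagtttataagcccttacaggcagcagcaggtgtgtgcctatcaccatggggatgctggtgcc
Ifi211 (chr1:173912997-173913296, - strand): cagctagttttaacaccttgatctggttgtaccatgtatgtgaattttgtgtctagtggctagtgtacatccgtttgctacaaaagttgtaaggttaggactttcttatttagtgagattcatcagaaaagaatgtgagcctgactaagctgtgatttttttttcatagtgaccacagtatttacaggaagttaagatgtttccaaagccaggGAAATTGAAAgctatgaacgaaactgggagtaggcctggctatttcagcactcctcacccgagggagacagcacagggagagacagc
Slfn5 (chr11:82951852-82952151, + strand): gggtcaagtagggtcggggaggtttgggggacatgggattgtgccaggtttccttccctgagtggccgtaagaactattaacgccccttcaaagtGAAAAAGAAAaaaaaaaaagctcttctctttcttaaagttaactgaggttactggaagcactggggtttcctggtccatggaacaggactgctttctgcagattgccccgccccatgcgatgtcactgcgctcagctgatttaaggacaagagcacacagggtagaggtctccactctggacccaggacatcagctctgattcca
Slfn8 (chr11:83020761-83021060, - strand): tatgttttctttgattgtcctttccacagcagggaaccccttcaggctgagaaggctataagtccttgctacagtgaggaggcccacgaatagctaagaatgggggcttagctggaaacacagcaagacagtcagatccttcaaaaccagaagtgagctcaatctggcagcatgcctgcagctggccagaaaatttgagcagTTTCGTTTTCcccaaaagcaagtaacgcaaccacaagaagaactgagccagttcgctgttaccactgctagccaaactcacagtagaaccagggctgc
Ifitm3 (chr7:141010695-141010994, - strand): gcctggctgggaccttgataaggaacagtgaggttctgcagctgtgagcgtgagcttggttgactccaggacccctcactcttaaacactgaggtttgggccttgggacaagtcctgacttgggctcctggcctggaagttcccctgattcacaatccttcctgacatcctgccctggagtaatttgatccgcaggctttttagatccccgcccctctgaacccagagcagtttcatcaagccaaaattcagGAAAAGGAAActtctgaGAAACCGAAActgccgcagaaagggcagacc

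The AP-1 motif TGANTCA, read on both strands, showed the other pattern. It was in 26 of the 134 promoters of genes called lower in CX3CR1+ macrophages (19.4%), in 9.64% of those called higher and in 6.42% of all. The C/EBP motif TTGCNNAA was in 16.4% of the promoters of genes called lower, 7.23% of those called higher and 10.5% of all. The PU.1 motif GAGGAAGT was in 8.21%, 3.61% and 4.33% and the kappaB motif, GGGA, any 2 bases and TTCC, in 1.49%, 2.41% and 1.79%, in the same order. The E-box CACGTG was in 7.46%, 14.5% and 12%. These shares are descriptions, and a match is not a bound site. The windows of C3ar1, Ecm1 and Olr1 are given as the promoters with an AP-1 match whose genes were named above and were called in every alternative, with the match in capitals.
C3ar1 (chr6:122856108-122856407, - strand): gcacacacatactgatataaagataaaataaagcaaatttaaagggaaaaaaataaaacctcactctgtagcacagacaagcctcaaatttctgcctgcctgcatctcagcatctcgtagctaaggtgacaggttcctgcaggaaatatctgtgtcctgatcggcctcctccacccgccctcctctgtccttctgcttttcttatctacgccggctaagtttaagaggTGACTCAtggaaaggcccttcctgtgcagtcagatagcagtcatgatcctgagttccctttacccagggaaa
Ecm1 (chr3:95739520-95739819, - strand): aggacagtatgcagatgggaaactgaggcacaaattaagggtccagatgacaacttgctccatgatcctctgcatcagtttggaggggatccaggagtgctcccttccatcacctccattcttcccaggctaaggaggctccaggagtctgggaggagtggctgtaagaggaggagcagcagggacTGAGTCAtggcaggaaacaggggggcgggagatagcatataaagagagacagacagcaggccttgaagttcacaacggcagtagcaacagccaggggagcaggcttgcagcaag
Olr1 (chr6:129507116-129507415, - strand): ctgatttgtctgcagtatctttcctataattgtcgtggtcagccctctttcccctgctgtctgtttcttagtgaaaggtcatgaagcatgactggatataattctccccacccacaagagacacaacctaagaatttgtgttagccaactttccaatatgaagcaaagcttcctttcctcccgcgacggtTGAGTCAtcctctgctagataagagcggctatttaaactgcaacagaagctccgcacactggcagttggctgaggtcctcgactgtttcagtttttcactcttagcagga

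Of 16 neutrophil markers, 3 were called and all 3 were lower in CX3CR1+ macrophages, with a median of -0.51. Without the first CD9+ library of POD 1, 7 were called lower and the median was -1.49. The median was -0.85 without the second CD9+ library of POD 14, and -0.23, -0.08 and -0.18 without the second CD9+ library of POD 1, the first of POD 14 and the first CX3CR1+ library of POD 1. S100a8, one chain of calprotectin, had 1900 and 444 CPM, then 2190 and 1660, in CD9+ macrophages and 317 and 278, then 22.4 and 39.8, in CX3CR1+ macrophages (difference -3.97, standard error 0.66, adjusted p = 0.0046). The CD9+ libraries of POD 1 differed widely and overlapped those of POD 14, while CX3CR1+ values fell in both libraries. S100a9, its partner and neighbour on chromosome 3, had a difference of -2.85 (adjusted p = 0.023) and the iron-sequestering lipocalin Lcn2 one of -3.16 (adjusted p = 0.0039). S100a8 and Lcn2 were called in all 8 fits that left out a library and S100a9 in 4. Members that define neutrophils gave no call, among them Ly6g (1.04, adjusted p = 0.76), Mmp8 (0.71, adjusted p = 0.38) and Cxcr2 (-1.97, adjusted p = 0.17). Cxcr2 was called without the first CD9+ library of POD 1, at -2.94. The summed markers were at 1660 and 1560, then 756 and 860 CPM in CX3CR1+ libraries. That sum includes S100a8, S100a9 and Lcn2 themselves, so its movement is not separate from theirs. The part of neutrophil RNA in the result was not tested. Of the 161 genes called lower, 71 (44.1%) had their highest group mean in sorted neutrophils, against 42.1% of all tested genes, and 70 (43.5%) in CD9+ macrophages against 16.9%. The group mean in CX3CR1+ macrophages was the highest for 54 of the 112 genes called higher (48.2%), against 22% of all. Because the same means entered the calls, the shares for CD9+ and CX3CR1+ macrophages are no independent support.

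The largest differences beyond the lists came mostly from genes at low levels in CX3CR1+ macrophages. Lrg1, a secreted leucine-rich glycoprotein, had 72.8 and 48.5 CPM, then 46.7 and 28.5, in CD9+ macrophages and 59.4 and 47.4, then 1.13 and 0.743, in CX3CR1+ macrophages (difference -5.12, standard error 0.43, adjusted p = 2.8e-05). Wfdc21, a small secreted protein, had a like course (difference -4.75, adjusted p = 0.0024). Il17rb, a receptor chain for interleukin-25, rose in CD9+ macrophages from 1.41 and 2.11 to 24.4 and 28.0 CPM and was below 1 CPM in every CX3CR1+ library (difference -4.96, adjusted p = 0.0010). Slamf9, Slco2b1 and Pmp22 also rose in CD9+ macrophages, with differences from -5.39 to -4.44, and were called in 5, 5 and 3 of the 8 fits that left out a library. Pmp22 stood at -1.52 (adjusted p = 0.83) without the first CX3CR1+ library of POD 1. AA467197 was at 0 and 1 counts in the CX3CR1+ libraries of POD 14 after 62 and 117 counts on POD 1, and was called in 3 of these fits. The plasma cell genes Iglc2 and Jchain had differences of -9.40 and -2.62, Jchain being called in 3 of the 8 fits that left out a library, and Iglc2 was at 13 CPM in one CX3CR1+ library of POD 1 and at most 0.743 CPM in the other 3. Without that library its difference was -4.09 (adjusted p = 0.29). Lymphoid markers, which include Jchain itself, summed to 43.6 and 96.2 CPM in CD9+ libraries of POD 1 and to 178 and 219 on POD 14. The part of lymphoid RNA in these values was not tested.

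In the other direction, Padi2, an enzyme that turns arginine into citrulline in proteins, rose in CX3CR1+ macrophages from 44.3 and 40.8 to 162 and 193 CPM, with 38.5 and 40.3, then 49.1 and 41.7, in CD9+ macrophages (difference 1.86, standard error 0.24, adjusted p = 7.9e-04). On POD 1 all 4 macrophage libraries lay within 38.5 to 44.3 CPM, and on POD 14 the populations were far apart. Klra2, a lectin-like receptor of the Ly49 family, fell in CD9+ macrophages from 25.7 and 30.4 to 11.3 and 10.9 CPM and had 78.1 and 73.2, then 103 and 108, in CX3CR1+ macrophages (difference 1.81, standard error 0.26, adjusted p = 0.0016). Arhgef37 had a difference of 2.05 (adjusted p = 0.0083) and, with Thbd, Slfn1, Padi2, Itgb3 and Klra2, was called in all 8 fits that left out a library. Arg2, the mitochondrial arginase, fell in both populations and more in CD9+ macrophages (difference 2.10, adjusted p = 0.022), and was called in 4 of these fits. Oplah, Tgm1, Sirpb1b, Cyp27a1 and Hopx had differences from 1.82 to 2.28 and were called in 4 or 5 of these fits. Col2a1, the collagen gene of cartilage, had the highest fitted difference among called genes, but its counts were 171 and 17 in the CX3CR1+ libraries of POD 14 and at most 14 in the other 6, which puts most of them in 1 library.

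Calls among stress and metabolic genes were set beside 2.28% of all tested genes, a share at which short lists can hold none. The hypoxia genes Ndrg1 (difference 1.46, standard error 0.22, adjusted p = 0.0022) and Bnip3 (1.11, standard error 0.20, adjusted p = 0.0067) were the 2 calls among 16 of that response. Bnip3 fell in both populations and more in CD9+ macrophages, and stood at 0.89 with scaling by library size alone. It also missed the threshold without the first CX3CR1+ library of POD 1 (0.98, adjusted p = 0.045) or of POD 14 (0.91, adjusted p = 0.066). The stress-induced repressor Atf3 was the 1 call among 20 immediate early genes, with 481 and 533 CPM, then 265 and 316, in CD9+ macrophages and 851 and 796, then 1320 and 1050, in CX3CR1+ macrophages (difference 1.33, standard error 0.24, adjusted p = 0.0070), a call lost without the first CX3CR1+ library of POD 14 (1.14, adjusted p = 0.054). No gene was called among 18 of glycolysis, 76 of the respiratory chain, 22 of cholesterol synthesis, 40 of the cell cycle, 80 ribosomal proteins, 20 of heat shock and ER stress and 14 of iron and heme handling. Without the first CD9+ library of POD 1, the calls were 3 higher for glycolysis, 11 lower for the respiratory chain, 2 lower for the cell cycle, 1 lower for cholesterol synthesis, 1 higher for ribosomal proteins and 2 higher for iron and heme. Without the second of POD 1 or the first of POD 14, heat shock and ER stress and iron and heme had 1 call lower each.

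**Figure D5:**
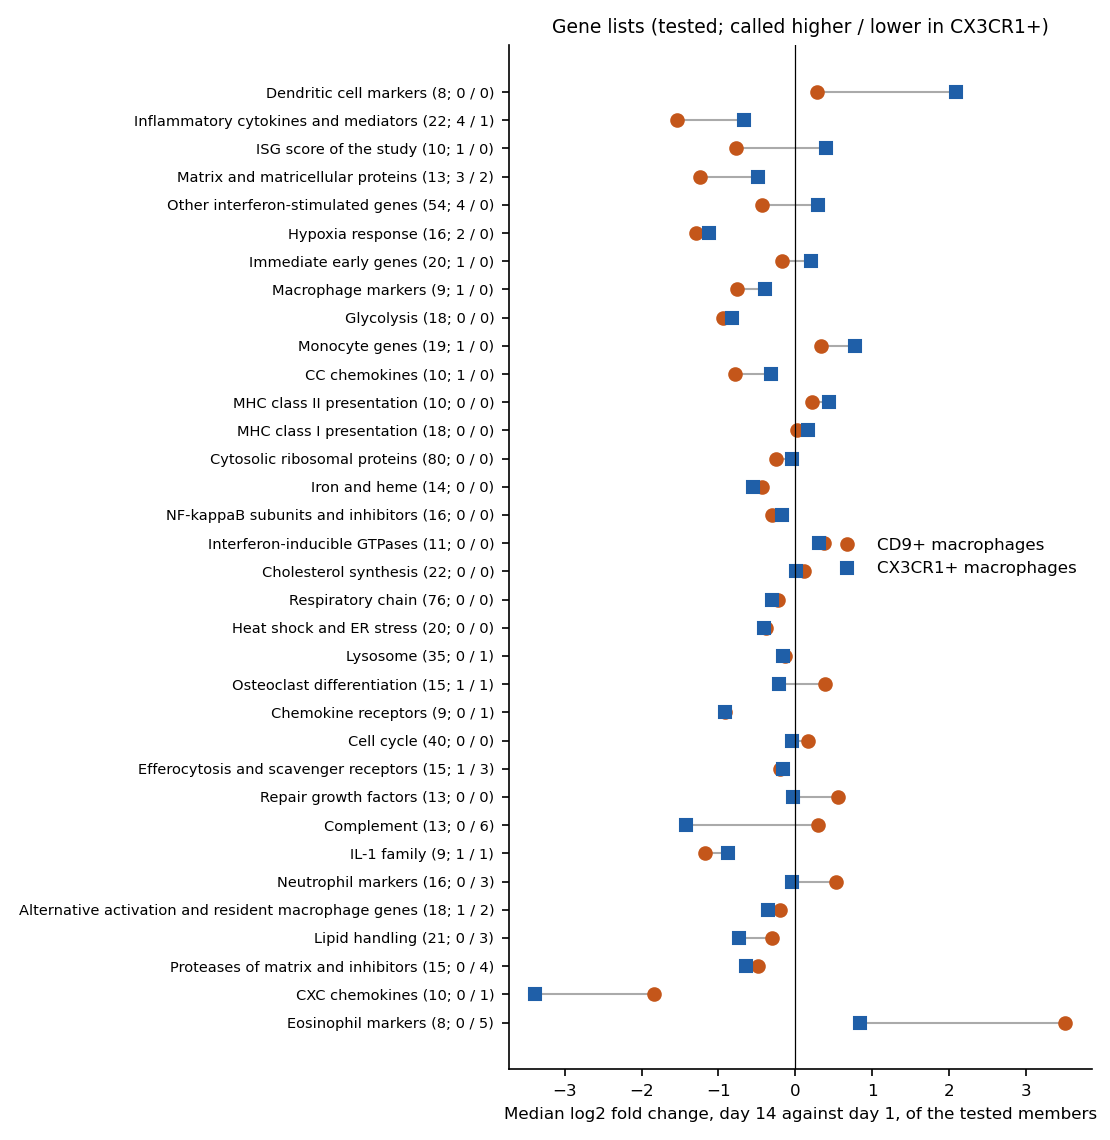
Median log2 fold change from POD 1 to POD 14 of gene lists in CD9+ (orange circles) and CX3CR1+ macrophages (blue squares), ordered by the median difference, for lists with at least 8 tested members. Numbers in brackets give the tested members and those called higher and lower in CX3CR1+ macrophages. Complement has medians of 0.30 and -1.42 and 6 calls lower, and inflammatory mediators have -1.54 and -0.67 and 4 calls higher. The gap between 2 medians is not the median difference, which for complement is -0.44.

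The remaining libraries of the series put these genes beside the other sorted populations. Over time, 390 of all 11998 tested genes (3.25%) changed in F4/80- cells, 121 rising and 269 falling. In neutrophils 1689 (14.1%) changed, 378 rising and 1311 falling. Of the 112 genes higher in CX3CR1+ macrophages, 8 rose and 12 fell in F4/80- cells, and none rose and 54 fell in neutrophils. Of the 161 lower genes, 4 rose and 32 fell in F4/80- cells, and 12 rose and 47 fell in neutrophils. Stab1 and C1qb fell in F4/80- cells and in neutrophils, with log2 fold changes of -5.62 and -3.80 in F4/80- cells and -2.82 and -3.14 in neutrophils. Cd63, Olr1 and Il18rap, which moved in opposite directions in the macrophage populations, were called in neither.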

How the data were processed

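Per the methods of the authors, Cutadapt was used for trimming, STAR for alignment (mm10), Gencode exons for counting and edgeR for testing, and they deposited raw read counts of 20200 genes in 16 libraries. The smallest total of a gene was 17 counts, and the filter behind the table is not given in the sources used here. Libraries were made with a stranded low-input kit from pools of mice, and every library was assigned to its group by its title.

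Counts were analysed as deposited in R 4.3.3 with edgeR 4.0.16 (limma 3.58.1). Genes with a group mean of at least 3 CPM in at least 1 of 8 groups were kept (11998), TMM factors were computed, and a quasi-likelihood model with 1 coefficient per group was fitted to all 16 libraries (common biological coefficient of variation 0.178, 8 residual degrees of freedom). The contrast was the time change in CX3CR1+ macrophages minus that in CD9+ macrophages, and p-values were adjusted by the Benjamini-Hochberg method over all tested genes. CPM values use the TMM factors. A group with 3 counts or fewer in both libraries was treated as not measurable, and no fold is read from it.

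Named genes were the sort antigens and Ccr2, the 12 highest and 12 lowest differences among called and separated genes with a group mean of at least 10 CPM, up to 4 called members of each of 40 lists with examples of no call, up to 10 genes that moved in opposite directions, and genes the study names. C5ar1, Itgax and Ear2 were added after their values were seen. Some genes that met the rule are not reported here. The comparison, its members and the lists were chosen with earlier results of these data known. Promoters came from a RefSeq table.

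Alternatives were DESeq2 1.42.0, other scaling factors, other filters, the 8 macrophage libraries alone, a replicate block, other thresholds, thinning, each library left out and, chosen after seeing the data, mitochondrial and rRNA-like genes left out. Same-numbered libraries of both populations may share a pool, which no source states. Their deviations from the group means had a correlation over 11998 genes of 0.0293 on POD 1 and 0.122 on POD 14. On simulated counts with this design over 11998 genes, 23 of 100 genes changed 2-fold and 61 of 100 changed 4-fold were called, beside 8 unchanged genes. In the simulation, each gene had the same mean in all libraries before the change and the same spread in all groups. It thus lacked the wider spread of the CD9+ libraries of POD 1 and the low levels of many called genes in CX3CR1+ macrophages.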

Additional observations from a re-analysis of the deposited data

Results flagged for a closer look

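Each result here is a difference between 2 populations under the same contrast, tested as an interaction term by edgeR's quasi-likelihood test with adjustment over all genes. The test called 273 genes, 112 higher and 161 lower in CX3CR1+ macrophages. Values in brackets are log2 differences of time changes. With 2 libraries per group, no separate search was made for single libraries far from the rest. The values of Iglc2 and Pmp22 were much smaller in size without the first CX3CR1+ library of POD 1, as given above.

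Higher were Thbd (2.41), Oplah (2.28), Slfn1 (2.10), Arg2 (2.10), Sirpb1b (2.05), Arhgef37 (2.05), Tgm1 (2.02), Itgb3 (1.99), Cyp27a1 (1.96) and Padi2 (1.86). Also higher were Hopx (1.82), Klra2 (1.81), Il1b (1.24), Nlrp3 (1.76), Ptgs2 (1.75), Cd14 (1.18), Ccl2 (1.5), Vcan (1.81), Rsad2 (1.74) and Ifi211 (1.38). The same direction was found for Slfn5 (1.32), Slfn8 (1.24), Ifitm3 (1.4), Ndrg1 (1.46), Bnip3 (1.11), Clec7a (1.16), F13a1 (1.55), Fn1 (1.80), Atf3 (1.33) and Tlr2 (1.15). It was found too for Emilin2 (1.38) and F10 (1.65).

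Lower were Iglc2 (-9.40), Reps2 (-5.64), Cd276 (-5.51), Gas6 (-5.40), Slamf9 (-5.39), Lrg1 (-5.12), Il17rb (-4.96), Slco2b1 (-4.82), Wfdc21 (-4.75) and Pmp22 (-4.44). Also lower were Cd9 (-1.72), Il1f9 (-3.37), Il6 (-2.46), Cd63 (-3.20), Olr1 (-2.86), Spp1 (-1.99), Stab1 (-3.85), Tgm2 (-2.39) and C1qb (-3.90). This direction was shared by C1qc (-3.79), C3ar1 (-3.46), C1qa (-3.45), Arg1 (-2.72), Ecm1 (-2.73), Serpinb2 (-3.36), Adam8 (-2.38), Timp2 (-1.95), Mmp14 (-1.77) and Acp5 (-2.03). It was shared too by S100a8 (-3.97), Lcn2 (-3.16), S100a9 (-2.85), Ear6 (-3.54), Epx (-3.33), Prg2 (-2.80), Siglecf (-2.39), Jchain (-2.62), Htra3 (-4.69) and Tulp3 (-4.44). Further lower genes were Olfml3 (-3.37), Il18rap (-3.31) and Med12l (-2.92).

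The fitted values of 4 further genes rest on a group with 3 counts or fewer in both libraries and are no fold: Col2a1 (7.5) and Pnpla1 (5.0) on the higher side, and AA467197 (-4.56) and Cxcl3 (-4.42) on the lower side.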

How the results depend on the processing

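Of the 273 genes, each kept its sign in every alternative that tested it, 87 were called in all 8 fits that left out 1 library, and 57 in all 22 alternatives. Over 104 named genes there was no reversal, 1979 comparisons with an alternative kept the call or its absence, 261 lost a call and 14 gained one. Leaving out 1 library gave 123 to 907 genes whose time change differed, 41 to 370 higher and 76 to 537 lower, with 577 to 1745 genes changing over time in CD9+ and 434 to 883 in CX3CR1+ macrophages. An arm left with 1 library was assumed to vary like the other groups.

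DESeq2 called 439 genes (169 higher, 270 lower), 264 of them among the 273. Scaling by library size alone gave 54 higher and 260 lower. The 8 macrophage libraries alone gave 156 genes (60 higher, 96 lower). A minimum of 3 CPM in all 4 macrophage groups, which tested fewer genes, gave 103 lower, with 497 genes changing over time in CD9+ and 428 in CX3CR1+ macrophages and 423 and 975 differing between populations on POD 1 and POD 14. A test against a fold change of 1.5 gave 103 genes (18 higher, 85 lower), 533 and 389 over time, and 653 between populations on POD 1. With no minimum size, the counts were 2124 and 1513 over time and 1882 and 3160 between populations. Beyond the construction of these settings, the cause was not tested.

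When replicate numbers entered as a block inside a day, 312 genes were called, 260 of them among the 273, and with the block over all libraries 310, of which 270 were shared. The check did not establish that the numbers pair the samples.

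Depth limits genes near 1 CPM, where libraries hold about 10 counts, and with 2 libraries per group the simulation recovered 23 of 100 genes changed 2-fold, so a gene without a call is not shown to be alike in both populations.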

Other observations

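Dendritic cell markers had a median difference of 1.44 over 8 tested members, and none was called. The median was 0.95 without the first CD9+ library of POD 1 or the first CX3CR1+ library of POD 14, and 1 member was called without the second CD9+ library of POD 1. Dpp4, a peptidase of type 1 conventional dendritic cells, had 1.32 (edgeR adjusted p = 0.082) and Cd209a, a lectin of monocyte-derived ones, had -0.05 (adjusted p = 0.98). The 11 markers summed to 39.4 and 30.1 CPM in CX3CR1+ macrophages on POD 1 and 91.4 and 100 on POD 14, with 25.7 and 35.8, then 39.5 and 47.5, in CD9+ macrophages. The CX3CR1+ sums of POD 14 lay above all others in the macrophage libraries.

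Among 19 monocyte genes Vcan was the 1 call, and 3 were called without the first CD9+ library of POD 1. Erythroid and platelet markers (7 tested) gave no call, though 1 was called lower without either CD9+ library of POD 1 or the first CX3CR1+ library of that day, and stromal and endothelial markers gave 1 among 7, Col2a1.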
